A study of Mus musculus with 9 samples.

Results

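The genes followed here encode enzymes that build purine and pyrimidine nucleotides from small precursors. They are Ppat, Gart, Paics, Adsl, Atic, Impdh2, Gmps, Cad, Dhodh and Umps, 10 of the 24391 gene rows of a table of RNA-seq read counts, taken by symbol. All 10 had a row and all 10 passed the filter on low counts, which left 12573 genes for testing. The libraries came from bone marrow of C57BL/6 mice aged 6 to 8 weeks with leukaemia of the AML1-ETO9a model, in which a short form of the AML1-ETO fusion protein is the oncogene. Every group came from marrow with that leukaemia, and no healthy marrow was part of the comparison. Whether all sorted cells were leukaemia cells was not tested. The cells had been separated by their surface level of CD43, a leukocyte sialoglycoprotein, and of c-Kit, the stem cell factor receptor. This gave the groups CD43++ckit+, CD43+ckit- and CD43-ckit-, with 3 libraries each. How the fusion was introduced is not in the labels, nor is whether each library is a different animal. All p-values therefore rest on the scatter of these libraries alone, which may be technical. The groups are called ckit+ cells (CD43++ckit+), CD43+ cells (CD43+ckit-) and CD43- cells (CD43-ckit-) from here on.

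Purine synthesis assembles the ring on phosphoribosyl pyrophosphate, an activated ribose, until inosine monophosphate (IMP) is formed. IMP is then turned into adenine or guanine nucleotides. Pyrimidine synthesis first builds the ring as orotate and afterwards attaches the ribose to give uridine monophosphate, the parent of the cytidine and thymidine nucleotides. Dividing blood progenitors need both routes for RNA and DNA, and drugs against several of these enzymes, IMP dehydrogenase and dihydroorotate dehydrogenase among them, act on proliferating blood cells.

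Total counts ran from 17966197 to 31781746 a library and were lowest in CD43- (17966197 to 21609537). Kit stood at 164.2 ± 15.9 CPM (TMM-scaled read counts relative to library size; mean ± SD, n = 3) in ckit+, 15.8 ± 7.01 in CD43+ and 34.1 ± 13.2 in CD43-, and Spn, the gene of CD43, at 502.4 ± 63.7, 194.2 ± 50.3 and 142.3 ± 61.2. The summed level of 9 erythroid markers ran from 1664 to 2394 CPM in ckit+, from 14249 to 16723 in CD43+ and from 29800 to 46765 in CD43-. Most of the CD43- sum was Slc4a1 (mean 21462) and Alas2 (9121). All 7 tested erythroid markers were lower in ckit+ than in CD43+, and all 7 than in CD43-. Between CD43+ and CD43-, 2 were lower in CD43+ and 5 were not called, Rhd having means of 780.4 and 770.5 CPM. Hbb-bt had 0 counts in all libraries and Hba-a1 in those of ckit+, while Alas2 and Klf1 had counts. The sum of 10 neutrophil markers ran from 95.5 to 6057, from 487.3 to 3707 and from 3840 to 17222 CPM in the same order, and 0 of 10 were called in any comparison by edgeR, 1 library of ckit+ (number 3) lying above all of CD43+. The sum of 10 cell cycle markers was 2624 to 3097, 2447 to 3437 and 1539 to 1721 CPM. Against CD43-, 8 of 8 B lineage markers and 6 of 8 T and NK cell markers were lower in ckit+, at sums of 3.88 to 24.8 against 86.9 to 209.0 CPM and of 5.01 to 24.1 against 27.3 to 45.2 CPM. In CD43+ against CD43-, 5 B lineage markers were lower, and of the T and NK cell markers 2 were lower and 1 higher. Against CD43+, 0 of 8 and 1 of 8 were lower in ckit+. Of the monocyte and macrophage markers 8 of 10, and of the myeloid progenitor markers 4 of 8, were lower in CD43+ than in CD43- (sums of 30.4 to 97.2 against 249.0 to 406.8 CPM and of 247.5 to 448.5 against 1020.4 to 1750.3 CPM). In ckit+ against CD43-, 2 of 10 of the former were lower, and of the latter 2 were higher and 2 lower. Against CD43+, 1 of 10 and 2 of 8 were higher in ckit+. The myeloid progenitor list holds Kit and Spn, whose proteins the cells were sorted by. These were the 2 higher ones against CD43-. Cd34, Flt3, Mpo, Elane, Prtn3 and Ctsg had lower means in ckit+ than in CD43-. Calls and sums of this list are therefore not independent of the sort. Of 8 mast cell and basophil markers 4 were higher in ckit+ than in CD43+ (sums of 742.1 to 1398 against 458.3 to 533.7 CPM). Against CD43-, whose sum was 1101 to 1401 CPM, 2 were higher and 2 lower in ckit+, and 3 were lower in CD43+. The sums of ckit+ and CD43- differed in content. Gata2 had means of 251.4 CPM in ckit+ and 984.6 in CD43-, while Hdc had 545.7 and 167.7 and Ms4a2 294.5 and 35.5. The shares over all tested genes are given with the enzyme genes below. The part of these cell types in the differences below was not tested. In sorted bulk samples, fewer cells of a type and less RNA per cell cannot be told apart.

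The 10 enzyme genes were highest in ckit+, intermediate in CD43+ and lowest in CD43-, an order of means that held for all 10 of them and for 30.9% of all tested genes. Against CD43-, all 10 were higher in ckit+ by edgeR's quasi-likelihood test (Benjamini-Hochberg adjusted p under 0.05; 39.7% of all tested genes were called in that direction). Their log2 fold changes ran from 1.36 for Paics to 2.17 for Cad, with a median of 1.88 beside 0.19 over all tested genes. The libraries of the 2 groups did not overlap for any of the 10, as for 42.7% of all tested genes in that direction. Against CD43+, 9 of 10 were higher in ckit+ (19.7% of all tested genes), with a median of 1.30 beside 0.01, and Paics was not called. Here the libraries were separate for 8 of 10 (27.0% of all tested genes). Between CD43+ and CD43-, 7 of 10 were higher in CD43+ (31.0% of all tested genes), with a median of 0.73 beside 0.13, and Gart, Atic and Dhodh were not called. With the library number as a block in a fit of these 2 groups alone, these 3 genes were called as well, as given below. They were not called with that block over all 9 libraries. That block was chosen from the data. Libraries 2 and 3 of these groups deviated alike across numbers too, so the numbers are not shown to mark pairs. The libraries of CD43+ and CD43- were separate for 6 of 10 (36.1% of all tested genes). None was called lower in any comparison, against 27.7%, 20.1% and 20.9% of all tested genes in the same order of comparisons. Ppat, Adsl, Impdh2, Gmps, Cad and Umps, 6 of 10, were called both higher in ckit+ against CD43+ and higher in CD43+ against CD43- (5.76% of all tested genes). The 3 comparisons share their libraries and are not independent of each other. In the joint test of the 3 groups all 10 differed (adjusted p from 0.000184 to 0.00111), as did 74.8% of all tested genes.

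**Figure D1:**
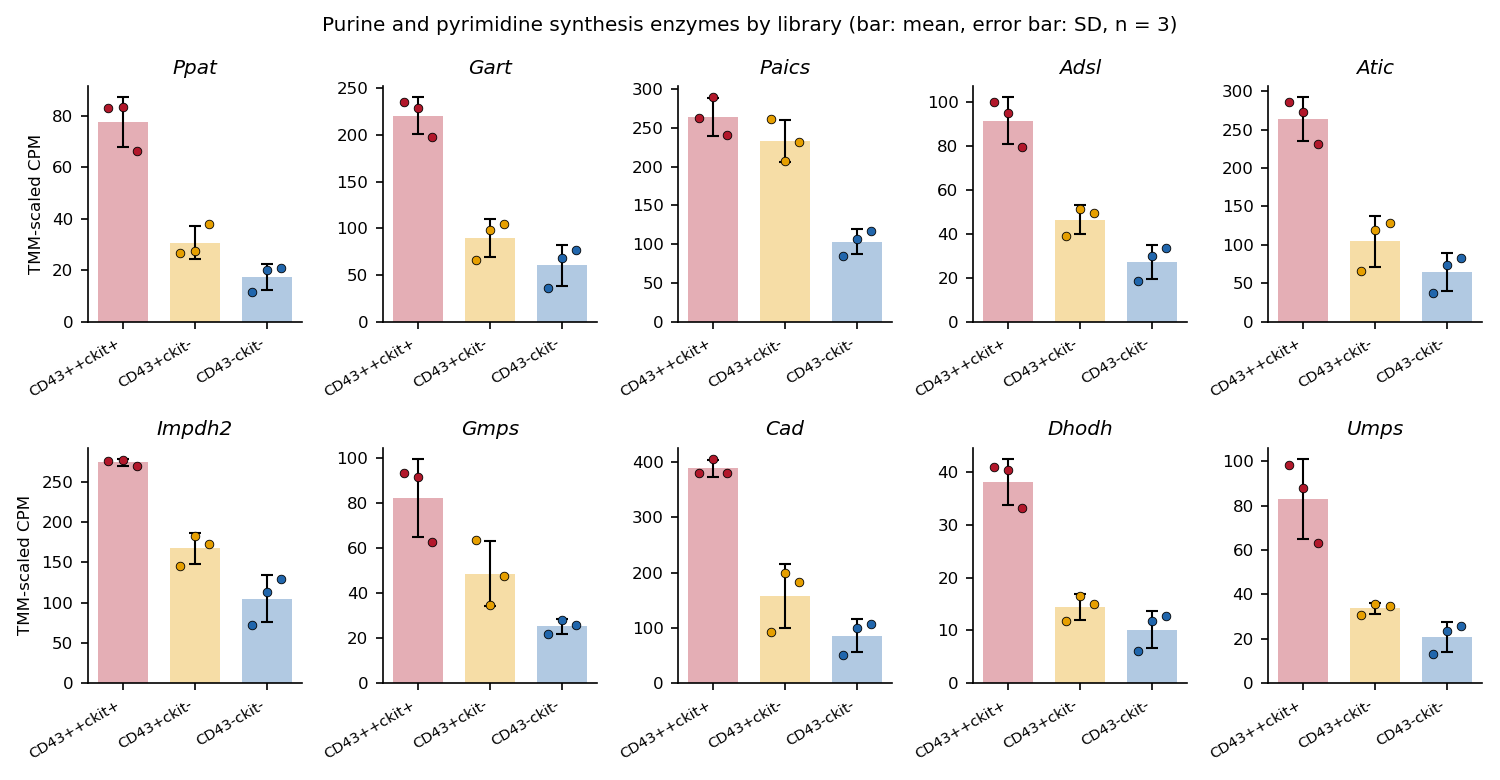
TMM-scaled CPM of the 10 enzyme genes (vertical axes, each starting at 0) in the 3 sorted groups; points are libraries in the order 1 to 3, bars are means and error bars are SDs of 3 libraries. The CD43++ckit+ libraries lie above all CD43-ckit- libraries for every gene, and the CD43+ckit- bar of Paics stands nearly as high as that of CD43++ckit+ (233.1 against 264.1 CPM).

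The size of these differences depends on the scaling. TMM, which assumes that most genes keep their level, gave the CD43- libraries factors of 0.589 to 0.776 and the ckit+ libraries 1.26 to 1.41. With plain library totals the median over all genes moved from 0.19 to 1.11 for ckit+ versus CD43-, from 0.01 to 0.28 for ckit+ versus CD43+ and from 0.13 to 0.78 for CD43+ versus CD43-. The enzyme medians became 2.75, 1.55 and 1.34 in these comparisons and stayed above the median of all genes. Higher calls made up 58.9%, 49.4% and 59.7% of all calls with TMM and 82.2%, 67.0% and 85.2% with library totals.

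**Figure D2:**
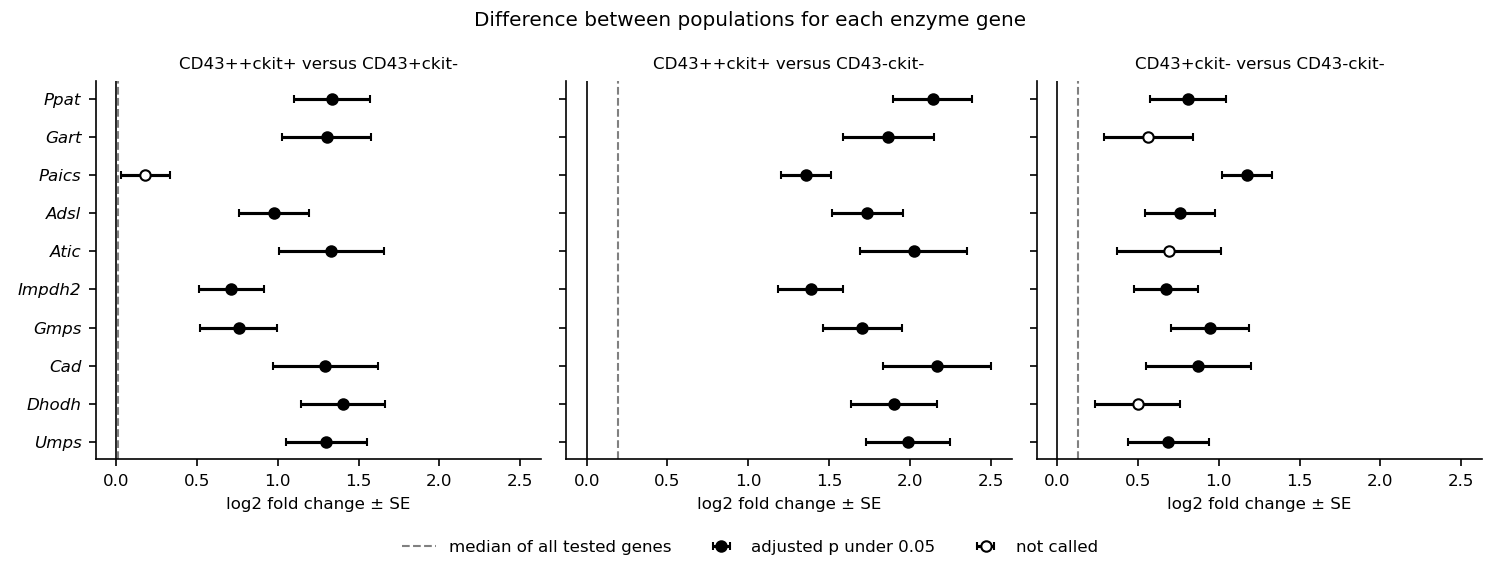
Log2 fold change of each enzyme gene, first-named group minus second, with its SE (horizontal axis), in the 3 comparisons. Filled points passed an adjusted p of 0.05, the dashed line is the median of all tested genes, and Paics is the gene nearest to 0 in the left panel (0.18) and farthest from it in the right panel (1.18).

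Ppat encodes amidophosphoribosyltransferase, which commits phosphoribosyl pyrophosphate to the purine route. It stood at 83.1, 83.4 and 66.5 CPM in libraries 1 to 3 of ckit+, at 26.9, 27.4 and 38.2 in CD43+ and at 11.8, 20.2 and 20.8 in CD43-. The 3 groups did not overlap. Its log2 fold change was 1.33 ± 0.23 (SE) from CD43+ to ckit+ (adjusted p = 0.00235), a 2.52-fold difference, and 2.14 ± 0.24 from CD43- to ckit+ (adjusted p = 8.84e-05). Between CD43+ and CD43- it was 0.81 ± 0.24 (adjusted p = 0.019), a call lost without library 3 of CD43+ (0.069) and with DESeq2 size factors (0.0641).

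Gart encodes a protein with several catalytic domains that carries out early steps of ring assembly, one of them with a formyl group from folate. Its mean was 220.4 ± 19.7 CPM (SD, n = 3) in ckit+, 89.4 ± 20.4 in CD43+ and 60.4 ± 21.7 in CD43-. Gart was 2.47-fold higher in ckit+ than in CD43+ (adjusted p = 0.0056). CD43+ (66.1 to 104.1 CPM) overlapped with CD43- (35.8 to 77.1 CPM), at a log2 fold change of 0.57 (adjusted p = 0.109). With the number as a block in the fit of these 2 groups the adjusted p was 0.00219, and with blocks over all 9 libraries Gart was not called. Of the exonic bases of Gart 19.7% overlap Gm15964 on the opposite strand, where reads are uncertain. Pfas, the amidotransferase of the purine route that is not among the 10, had 136.5 ± 10.1, 77.5 ± 4.92 and 42.0 ± 10.3 CPM and was called in all 3 comparisons (log2 fold changes 0.82, 1.70 and 0.88). Adsl, the lyase used both on the way to IMP and in the step from IMP to adenine nucleotides, had 91.3 ± 10.7, 46.4 ± 6.66 and 27.4 ± 7.72 CPM without overlap between groups. Adsl differed by 0.98 ± 0.22 between ckit+ and CD43+ (adjusted p = 0.00664) and by 0.76 ± 0.22 between CD43+ and CD43- (adjusted p = 0.017). DESeq2 size factors ended the latter call (0.064), as did leaving out CD43+ library 2 (0.0871) or 3 (0.0508).

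Atic encodes the bifunctional enzyme that closes the ring to give IMP. Its values were 285.7, 273.3 and 230.9 CPM in libraries 1 to 3 of ckit+, 66.5, 118.7 and 128.5 in CD43+ and 36.8, 74.3 and 83.1 in CD43-. Every ckit+ library lay above the other 6, and library 1 of CD43+ fell within the CD43- range. Atic was 2.52-fold higher in ckit+ than in CD43+ (log2 fold change 1.33 ± 0.32, adjusted p = 0.0102) and 4.06-fold higher than in CD43- (adjusted p = 0.000603). For CD43+ versus CD43- the value was 0.69 ± 0.32 (adjusted p = 0.0956). It was 0.66 with the number as a block in the fit of these 2 groups (adjusted p = 0.000239), and not called with blocks over all 9 libraries. Without the block it passed the threshold without library 1 of CD43+ (0.95, adjusted p = 0.0301).

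Paics encodes a bifunctional enzyme that adds carbon dioxide and then aspartate to the growing ring, and it departed from the other 9. Its values were 262.4, 289.2 and 240.7 CPM in ckit+, 261.3, 207.1 and 231.0 in CD43+ and 85.3, 106.6 and 117.3 in CD43-. The ckit+ and CD43+ libraries interleaved, and all 6 lay above those of CD43-. Its log2 fold change was 0.18 ± 0.15 between ckit+ and CD43+ (adjusted p = 0.389) and 1.18 ± 0.15 between CD43+ and CD43- (adjusted p = 0.000445). Taking the second difference from the first, a contrast added after the data were seen, gave -0.997 ± 0.26 for Paics (adjusted p = 0.0212), the only one of the 10 that passed; 18.0% of all tested genes were called in that direction and 10.5% in the other. It no longer passed once CD43+ library 1, 2 or 3 was left out (adjusted p = 0.0919, 0.0554 and 0.0615). For the other 9 genes the contrast ran from -0.19 for Gmps to 0.91 for Dhodh, with adjusted p from 0.164 to 0.939.

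Ppat and Paics lie head to head on opposite strands. In the RefSeq promoter table of build GRCm38.p6 their start sites are 276 bases apart, with the Paics start inside Ppat, and in GENCODE M21 their exons share 272 bases, 8.67% of the exonic length of Paics. Strand handling of the counts is not stated, so reads in that overlap are uncertain for both genes. The ratio of Paics to Ppat counts within a library was 3.16, 3.47 and 3.62 in ckit+, 9.73, 7.56 and 6.05 in CD43+ and 7.24, 5.29 and 5.63 in CD43-. The ratio was thus lower in each ckit+ library than in any of the other 6, and CD43+ overlapped with CD43-. This pair was chosen after its values were seen, and its ratio was not tested.

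Promoter windows from RefSeq (GRCm38.p6; 250 bases before to 50 after a start) were at hand for 9 of the 10 genes, all but Dhodh. They are shown because the genes had the same order of group means. The letters CACGTG, the E-box that MYC and MAX bind, which read the same on both strands, occurred in the windows of 3 of these 9 genes, Atic, Impdh2 and Paics. Of all 32851 windows 7.15% hold them, and of the 9535 tested genes with a window 11.7%. Each is printed with 12 bases on either side, 5′ to 3′ on the strand of the gene, with the E-box in capitals. The last line gives the window of Umps with TGACGTCA in capitals, the letters of the cyclic AMP response element, also the same on both strands and present in 1.79% of all windows and 3.65% of the tested genes with a window. The letters CCAAT, on either strand, were in 4 of 9 windows (Atic, Gart, Impdh2 and Paics), as in 42.8% of the tested genes, and the palindrome of NRF1 was in 0 of 9, as in 2.36% of the tested genes. The E-box began 7, 110 and 203 bases before the start of Atic, Impdh2 and Paics. Counted in GENCODE M21, 30 of the 30 printed bases of Impdh2 lie in exons of Impdh2 itself, 17 of those of Atic in Atic, 30 of those of Paics in Ppat and 30 of those of Umps in Umps and Gm15829. These letters are a description of the sequence, not of a factor bound there.
Atic, chr1:71557137-71557166, plus strand: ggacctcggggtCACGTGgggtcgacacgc
Impdh2, chr9:108560314-108560343, plus strand: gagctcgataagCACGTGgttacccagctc
Paics, chr5:76951087-76951116, plus strand: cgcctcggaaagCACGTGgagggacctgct
Umps, chr16:33967017-33967046, minus strand: ggacttctgggTGACGTCAcgggccccaag
Of the genes with the E-box letters, Atic differed 2.52-fold between ckit+ and CD43+, Impdh2 1.64-fold and Paics 1.13-fold, the last not called; the folds were not tested against each other.

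At the branch to guanine nucleotides, Impdh2 encodes IMP dehydrogenase type II, the rate-limiting enzyme, and Gmps the synthetase that completes GMP. Impdh2 had 275.9, 277.6 and 269.4 CPM in ckit+, 146.0, 183.2 and 173.0 in CD43+ and 72.2, 113.6 and 129.0 in CD43-. The groups did not overlap, and the ckit+ libraries had a coefficient of variation of 1.58%. Impdh2 differed by 0.71 ± 0.20 between ckit+ and CD43+ (adjusted p = 0.0191), by 1.39 ± 0.20 between ckit+ and CD43- (adjusted p = 0.000321) and by 0.67 ± 0.20 between CD43+ and CD43- (adjusted p = 0.0201). The first of these calls was lost without library 1 or 2 of ckit+ or library 1 or 3 of CD43+ (adjusted p from 0.0512 to 0.0676), and the last without library 2 or 3 of CD43+ (0.107 and 0.0543), with DESeq2 size factors (0.0854) and with DESeq2's own test (0.0601). Of the 50-base words of Impdh2 transcripts, 39.3% also occur in the pseudogene Impdh2-ps, so part of its counts is uncertain.

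Gmps had 93.2, 91.4 and 62.5 CPM in ckit+, 63.6, 34.6 and 47.8 in CD43+ and 21.7, 27.9 and 26.1 in CD43-. Library 3 of ckit+ lay just under library 1 of CD43+, and all 6 lay above CD43-. Its log2 fold change was 0.76 ± 0.24 between ckit+ and CD43+ (adjusted p = 0.0315), a call lost without library 1 or 2 of ckit+ or library 2 or 3 of CD43+ (0.0721 to 0.106). Between CD43+ and CD43- it was 0.95 ± 0.24 (adjusted p = 0.0105), and this call held under every alternative run.

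Impdh1, the type I isoenzyme of IMP dehydrogenase, stood at 66.7 ± 0.69 CPM in ckit+, 19.9 ± 4.31 in CD43+ and 22.1 ± 7.90 in CD43-. Impdh1 was higher in ckit+ than in CD43+ (1.74 ± 0.27, adjusted p = 0.00135), and between CD43+ and CD43- its value was -0.15 (adjusted p = 0.647). Within a library, Impdh2 counts exceeded Impdh1 counts 4.16, 4.19 and 3.99 times in ckit+, 9.76, 8.06 and 7.83 times in CD43+ and 5.47, 4.01 and 5.23 times in CD43-. Every CD43+ library had a higher ratio than the other 6. The log2 ratio differed by -1.05 between ckit+ and CD43+ and by 0.81 between CD43+ and CD43- (two-sided exact permutation test, p = 0.1 for each, the smallest that 3 against 3 allow), and by -0.24 between ckit+ and CD43- (exact p = 0.3). Of the adenylosuccinate synthetase genes, which start the branch to adenine nucleotides, Adss was higher in ckit+ than in both others (0.92 and 1.03), and Adssl1 was called only in CD43+ versus CD43- (-2.45, adjusted p = 0.0331; 0.0794 with library totals). With library totals Impdh1 was at 0.46 in place of -0.15 between CD43+ and CD43- (adjusted p = 0.249).

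**Figure D3:**
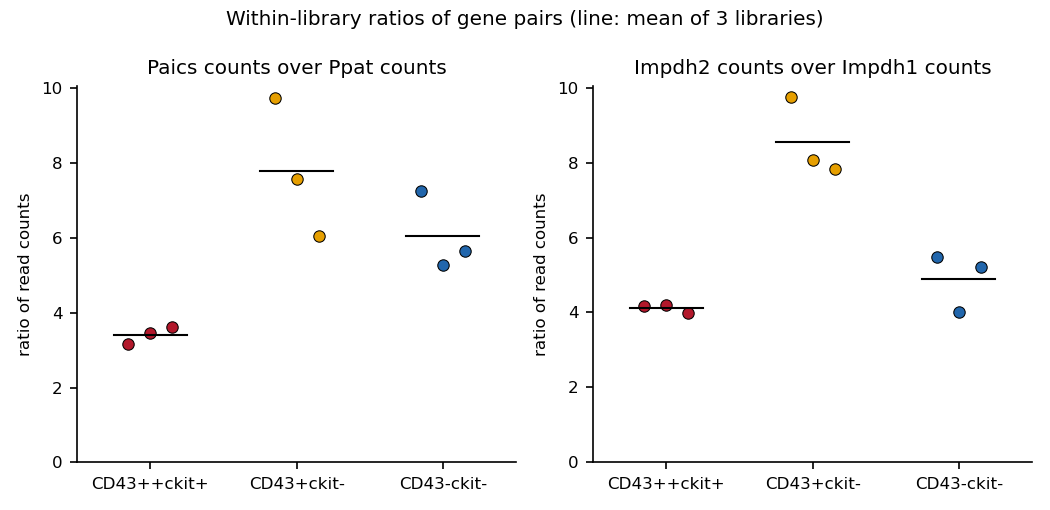
Ratio of read counts of Paics to Ppat (left) and of Impdh2 to Impdh1 (right) in each library of the 3 groups; lines are means of 3 libraries and axes start at 0. Both ratios are above those of CD43++ckit+ in all 3 CD43+ckit- libraries (6.05 to 9.73 against 3.16 to 3.62, and 7.83 to 9.76 against 3.99 to 4.19).

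In the pyrimidine route, Cad encodes the multifunctional protein that makes dihydroorotate, Dhodh the flavoprotein of the inner mitochondrial membrane that oxidises it to orotate, and Umps the enzyme that forms uridine monophosphate. Cad had 379.8, 405.9 and 379.5 CPM in ckit+, 91.9, 199.7 and 183.4 in CD43+ and 52.0, 100.7 and 106.4 in CD43-. The ckit+ libraries lay far above the rest, and library 1 of CD43+ fell within the CD43- range. Cad was 4.50-fold higher in ckit+ than in CD43- (2.17 ± 0.33, adjusted p = 0.000437), and 2.91% of all tested genes had a larger log2 fold change. Against CD43+ it was 2.45-fold higher (1.29 ± 0.33, adjusted p = 0.0121). Its difference of 0.87 ± 0.32 between CD43+ and CD43- (adjusted p = 0.0471) lost its call without any one of 6 libraries, namely 1 or 2 of ckit+, 2 or 3 of CD43+, and 1 or 2 of CD43- (adjusted p from 0.0516 to 0.201), and with DESeq2 size factors (0.119), a stricter filter (0.0715) and DESeq2's test (0.0816).

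Dhodh stood at 41.0, 40.3 and 33.1 CPM in ckit+, at 11.7, 16.4 and 15.1 in CD43+ and at 6.13, 11.7 and 12.7 in CD43-. Only the ckit+ libraries stood apart. Dhodh was 2.65-fold higher in ckit+ than in CD43+ (1.40 ± 0.26, adjusted p = 0.00306), and between CD43+ and CD43- it differed by 0.50 ± 0.26 (adjusted p = 0.134). With the number as a block in the fit of these 2 groups the adjusted p was 0.0368, and with blocks over all 9 libraries Dhodh was not called. Umps had 98.2, 88.0 and 63.3 CPM in ckit+, 30.8, 35.8 and 34.6 in CD43+ and 13.2, 23.8 and 25.8 in CD43-, without overlap. Its log2 fold changes were 1.30 ± 0.25 between ckit+ and CD43+ (adjusted p = 0.00362) and 0.69 ± 0.25 between CD43+ and CD43- (adjusted p = 0.0455). The latter call was lost without library 2 of ckit+, any one library of CD43+, or library 1 or 2 of CD43- (adjusted p from 0.0509 to 0.151), and with DESeq2 size factors (0.139), a stricter filter (0.0698) and DESeq2's test (0.122). Of the exonic bases of Umps 6.11% overlap Gm15829 on the opposite strand. Ctps, which turns uridine into cytidine triphosphate, had 80.7 ± 19.4, 29.3 ± 3.91 and 17.8 ± 4.68 CPM and was called in all 3 comparisons (1.46, 2.18 and 0.72). Ctps2, the gene of the other isoenzyme of Ctps, had 31.7 ± 5.16, 22.3 ± 2.04 and 28.0 ± 1.36 CPM and was called only between ckit+ and CD43+ (0.51, adjusted p = 0.0245).

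The comparison of CD43+ with CD43- was the least settled. When the library number was a block and only these 2 groups were fitted, all 10 genes were called higher in CD43+, beside 34.5% of all genes tested in that fit, with log2 fold changes of 0.55 for Gart, 0.66 for Atic and 0.49 for Dhodh. With blocks over all 9 libraries 6 were called (29.6% of all genes), Umps being lost (adjusted p = 0.0506). DESeq2 size factors left 2 calls, Paics and Gmps (22.3% of all genes), DESeq2's own test left 4 (24.6%), and library totals gave 10 (54.6%).

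Levels of different genes can be set side by side only per length, here per kilobase of exonic sequence in GENCODE M21, an annotation that need not be the one used for counting. In ckit+ the order of means was Impdh2 (89.1 ± 1.41 CPM per kilobase), Paics (84.1 ± 7.74), Cad (47.5 ± 1.85), Gart (42.8 ± 3.84), Atic (33.0 ± 3.60), Umps (23.9 ± 5.15), Ppat (17.6 ± 2.18), Adsl (16.2 ± 1.89), Gmps (10.2 ± 2.13) and Dhodh (6.03 ± 0.69). The libraries of Impdh2 and Paics overlapped, as did those of Umps and Ppat and those of Ppat and Adsl, and no other neighbours in this order did. In CD43+ Paics came first (74.3 ± 8.66) and Impdh2 next (54.4 ± 6.25), with no overlap between them, and in CD43- they overlapped again (32.8 ± 5.18 and 34.1 ± 9.55). Dhodh was the lowest in all 3 groups, at 2.28 ± 0.38 in CD43+ and 1.61 ± 0.56 in CD43-. Ppat, the entry enzyme of the purine route, stood at a fraction of the Paics level in each group (6.97 ± 1.45 in CD43+ and 3.98 ± 1.14 in CD43-).

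Within groups, all 10 genes were lowest in library 3 of ckit+ and in library 1 of CD43-, as were 56.8% and 45.6% of all tested genes. In CD43+ 8 of 10 were lowest in library 1 (38.0% of all tested genes), while Paics and Gmps were highest there. Library 3 of ckit+ had the highest neutrophil marker sum of its group (6057 CPM beside 354.6 and 95.5), and library 1 of CD43- the highest erythroid sum of its group (46765 beside 31588 and 29800) and the lowest neutrophil sum (3840 beside 16584 and 17222). Library 1 of CD43+ had the lowest neutrophil sum (487.3 beside 3707 and 2955) and the highest cell cycle sum (3437 beside 2447 and 2718). Their part in the enzyme values was not tested. Without these 3 libraries, which also correlated least with the others of their groups, all 10 genes were called higher in each of the 3 comparisons, Paics by 0.33 between ckit+ and CD43+ (adjusted p = 0.0157). In that fit, added after the data were seen, 34.6% of all genes were called higher in ckit+ than in CD43+, 46.4% higher in ckit+ than in CD43- and 37.4% higher in CD43+ than in CD43-. The libraries left out held the lowest ckit+ value (240.7 CPM) and the highest CD43+ value (261.3 CPM) of Paics. The fit is therefore no separate support for these calls.

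Other genes of nucleotide metabolism were read from lists by step. Of all tested genes, 19.7% were called higher and 20.1% lower in ckit+ than in CD43+. The shares were 39.7% and 27.7% for ckit+ against CD43-, and 31.0% and 20.9% for CD43+ against CD43-. Phosphoribosyl pyrophosphate synthetase genes and their regulators supply both routes. Of these, 4 of 5 were higher in ckit+ than in CD43+, 4 of 5 than in CD43-, and 0 were lower (medians 0.58 and 1.03 beside 0.01 and 0.19 over all genes). Prps2 had 59.1 ± 13.8, 18.3 ± 2.82 and 13.3 ± 2.77 CPM (log2 fold changes 1.69, 2.15 and 0.47, the last not called). Prps1l3 (93.2 ± 22.0, 42.3 ± 6.23 and 24.0 ± 4.45 CPM) and Prpsap1, a regulatory subunit gene (66.4 ± 8.20, 44.5 ± 4.28 and 32.6 ± 5.04 CPM), were called in all 3 comparisons. Prps1 had 65.4 ± 9.88, 47.1 ± 5.08 and 50.5 ± 1.35 CPM. Genes of deoxynucleotide and thymidylate synthesis had another order. Of 8, 1 was higher and 1 lower in ckit+ than in CD43+ (median 0.30 beside 0.01 over all genes), while 5 were higher and 0 lower in CD43+ than in CD43- (median 1.18 beside 0.13). Against CD43-, 6 were higher and 1 lower in ckit+ (median 1.60 beside 0.19). Rrm1, the large subunit of ribonucleotide reductase, had 324.4 ± 3.81, 408.3 ± 42.0 and 156.9 ± 18.3 CPM (-0.33, adjusted p = 0.0694, between ckit+ and CD43+; 1.38, adjusted p = 0.000101, between CD43+ and CD43-). Rrm2, the small subunit, differed from Rrm1, with 120.8 ± 11.4, 206.1 ± 45.8 and 199.2 ± 13.4 CPM. It was lowest in ckit+, and its CD43+ and CD43- libraries overlapped. Tyms, thymidylate synthase, stood at 86.9 ± 4.09, 81.7 ± 8.54 and 27.0 ± 9.85 CPM, with differences of 0.09 (adjusted p = 0.804) and 1.60 (0.00092). Dtymk, thymidylate kinase, and Dut, the dUTPase, were likewise called between CD43+ and CD43- (1.26 and 1.09) but not between ckit+ and CD43+ (0.26 and 0.70, adjusted p = 0.461 and 0.0839). Of the cell cycle markers, 0 of 10 were called between ckit+ and CD43+ and 9 of 10 were higher in CD43+ than in CD43-; their part was not tested.

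Of 14 tested salvage genes, which recycle bases and nucleosides, 5 were higher and 4 lower in ckit+ than in CD43+, 9 higher and 3 lower in ckit+ than in CD43-, and 8 higher and 1 lower in CD43+ than in CD43- (medians 0.00, 0.75 and 0.56 beside 0.01, 0.19 and 0.13). Pnp, purine nucleoside phosphorylase, had the opposite order to the synthesis genes, with 75.9 ± 5.26, 122.1 ± 7.81 and 357.2 ± 49.8 CPM, and was lower in ckit+ than in CD43- by -2.23 ± 0.14 (adjusted p = 3.01e-06). Uckl1 peaked in CD43+ (29.0 ± 1.47, 51.0 ± 6.80 and 25.7 ± 1.20 CPM). Tk2, the mitochondrial thymidine kinase, and Uck1, a uridine-cytidine kinase, were higher in CD43+ than in CD43- (0.78 and 0.96) and not called between ckit+ and CD43+ (0.19 and -0.19). Of 12 nucleotide breakdown genes, 1 was higher and 3 lower in ckit+ than in CD43+, 3 higher and 5 lower in ckit+ than in CD43-, and 4 higher and 3 lower in CD43+ than in CD43- (medians -0.48, -1.15 and -0.11 beside 0.01, 0.19 and 0.13). Nt5c3, the pyrimidine nucleotidase of maturing red cells, had 139.4 ± 36.5, 184.0 ± 26.4 and 665.9 ± 155.1 CPM (-2.26, adjusted p = 7.00e-05, ckit+ versus CD43-). Samhd1, a deoxynucleotide triphosphatase, had 127.5 ± 3.53, 204.0 ± 8.54 and 290.1 ± 52.0 CPM and was lower in ckit+ than in both other groups (-0.68 and -1.19). Ampd3, the AMP deaminase of red cells, was lower in ckit+ than in CD43+ by -1.41, and Nt5c3b was higher (1.01). The erythroid marker sums given above had the same order of groups as Pnp, Nt5c3 and Samhd1. Of the 7 tested erythroid markers, 5 were not called between CD43+ and CD43-. The part of erythroid cells was not tested.

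Kinases that charge mono- and diphosphates were higher for 5 and lower for 2 of 13 in ckit+ against CD43+ (19.7% and 20.1% of all tested genes). Among them, Nme1 (0.92) and Nme2 (1.86) were higher and Nme3 (-1.63) and Ak1 (-0.95) lower. Of the 4 tested nucleoside transporter genes, 1 was higher and 1 lower in that comparison, near the shares of all tested genes. Slc29a1, the main equilibrative carrier, had 261.5 ± 12.9, 392.3 ± 45.7 and 134.0 ± 21.2 CPM. It was lower in ckit+ than in CD43+ (-0.59, adjusted p = 0.0117) and higher than in CD43- (0.97, adjusted p = 0.00041). With library totals the calls of Slc29a1 (-0.31, adjusted p = 0.23) and Ak1 (-0.67, adjusted p = 0.0718) between ckit+ and CD43+ were lost, and Nme3 kept its call (-1.36). Slc29a2 was higher in ckit+ than in CD43+ by 2.43 at a low level (5.72 ± 1.08 against 1.05 ± 0.49 CPM). Slc29a3 was called only in ckit+ versus CD43- (0.52, adjusted p = 0.037), and Slc28a2 in no comparison (adjusted p from 0.0513 to 0.502).

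**Figure D4:**
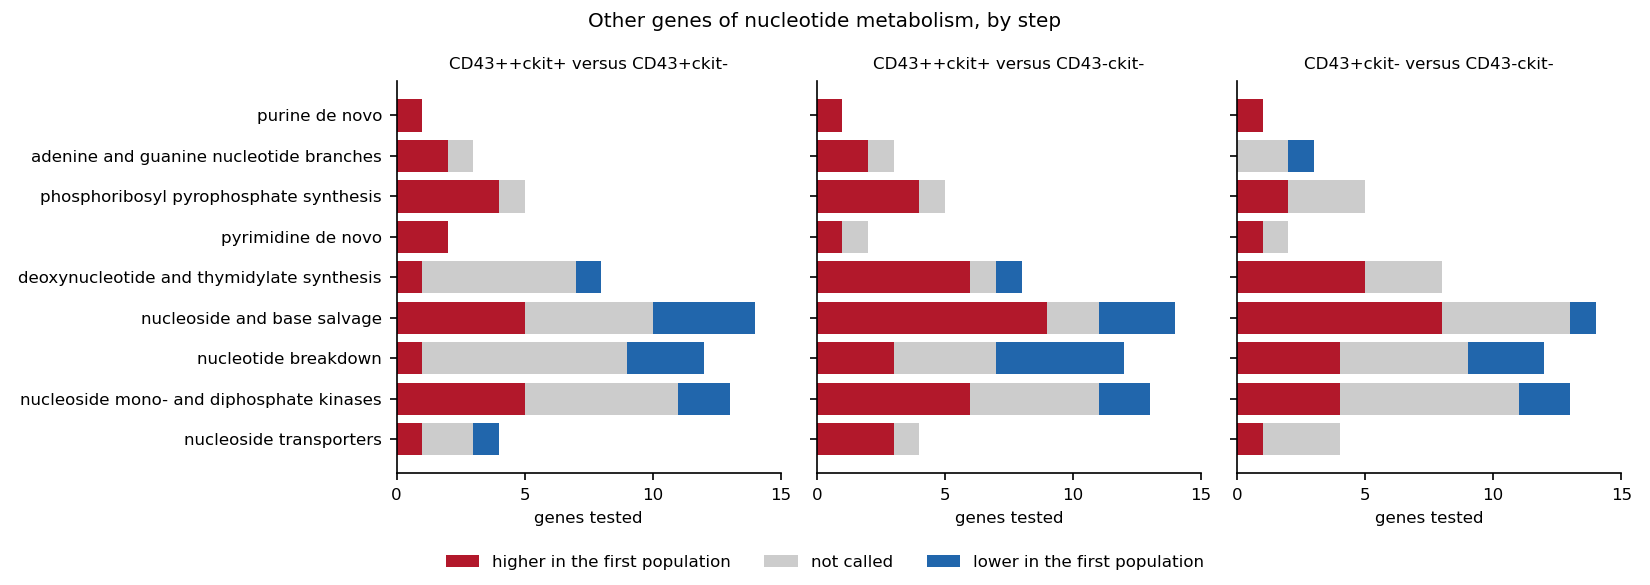
Number of tested genes (horizontal axis) of each list of nucleotide metabolism, the 10 enzyme genes left out, that were called higher (red), not called (grey) or called lower (blue) in the first-named group, for the 3 comparisons. Deoxynucleotide and thymidylate genes are mostly grey in the left panel (1 higher, 1 lower of 8) and have 5 red of 8 in the right panel.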

How the data were processed

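The authors deposited 1 table of unnormalized read counts, with gene symbols as rows and 9 libraries as columns; the labels' protocols give total RNA as input and TruSeq as the kit. Per the submitters' processing notes, which assign no roles, the tools were CASAVA 1.8, TopHat2 2.0.4, RSEM, HTSeq and edgeR, and the build was human although the symbols are mouse. How strands were counted, and on which annotation, is not given in the sources used here, so coordinates are printed only for the RefSeq promoter windows, in GRCm38.p6.

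The counts were filtered with filterByExpr (minimum count 10, minimum total 15), scaled by TMM and fitted with edgeR 4.0.16 in R 4.3.3 (3 group means over 9 libraries, robust glmQLFit, glmQLFTest). P-values were adjusted by Benjamini-Hochberg over all 12573 genes and called under 0.05. The SE of a log2 fold change is its size over the square root of F. The code was tested on simulated data. DESeq2 1.42.0, other scalings and filters, replicate blocks and leaving out libraries were the alternatives. The members and lists were chosen with earlier results of these data known. All members are named, with Impdh1 and Pfas, and with Rrm2 as the partner subunit of Rrm1. Of each list, up to 4 further genes are named: those of smallest joint adjusted p among genes averaging 1 or more in log2 CPM.

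To see whether library numbers pair samples, each library's deviation from its group mean was correlated with that of the same number elsewhere. This gave 0.525, 0.366 and 0.303 for CD43+ with CD43- cells, which were taken as pairs in the block fit, from the data and not the labels. Unequal numbers gave values as high: 0.343 for CD43+ library 2 with CD43- library 3, and 0.349 for 3 with 2. Whether equal numbers are pairs is therefore not shown. With ckit+ cells, equal numbers gave 0.447, -0.617 and 0.382 (CD43+) and 0.262, -0.318 and 0.252 (CD43-). Libraries of a group differed beyond sampling noise (chi-square over its degrees of freedom, 15.8 to 123.9), and none was treated as a duplicate.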

Additional observations from a re-analysis of the deposited data

How the results depend on the processing

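All 10 enzyme genes were called higher in ckit+ than in CD43- under all 17 alternatives, and none of the 510 values of single genes under an alternative turned direction. Of these, 36 lost and 11 gained a call, 28 and 10 of them between CD43+ and CD43-. There, 7 genes were called, against 2 with DESeq2 size factors, 4 with DESeq2's test and 2 to 7 without 1 library (3 without library 2 and 2 without library 3 of CD43+). The replicate block gave 10 in a fit of the 2 groups and 6 over all 9 libraries, and changed no call of the 10 genes in the other comparisons. The count of all genes called between ckit+ and CD43+ was 5005, and 8557 without the 3 least correlated libraries. The Impdh2 to Impdh1 ratio kept its direction under each alternative, which cannot reach a p under 0.1. The lowest count behind a value of the 10 genes was 78 reads (Dhodh, library 1 of CD43-). Over all genes, libraries of a group differed beyond sampling noise, as given above. For single genes, the part of counting error in the spread between libraries was not tested. It may be larger where libraries varied least, as for Impdh2 in ckit+ (coefficient of variation 1.58%).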

Other observations

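Over the 9 libraries, the genes outside the 10 whose log2 CPM followed the mean of the 10 most closely were Nup205 and Ndc1, which encode parts of the nuclear pore, Lsm11, a component of the U7 particle that processes histone transcripts, Gstcd and Mrps2, a mitochondrial ribosomal protein gene. Their Pearson r ran from 0.9969 to 0.9979 among the 8349 candidates, genes averaging 3 or more in log2 CPM. By Spearman's rho 2 of these 5 stayed among the top 5, and 138 genes were tied at the highest value. The points share libraries and depth, and 3 groups that differ in most genes set much of such a correlation. Among the 10 themselves, r with their own mean was lowest for Paics (0.860) and Gmps (0.905) and at least 0.977 for the other 8.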
